A study of Mus musculus with 16 samples.

Results

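This section describes the 10 genes of prostaglandin and leukotriene synthesis, Ptgs1, Ptgs2, Ptges, Ptgis, Ptgds, Hpgds, Alox5, Alox5ap, Ltc4s and Alox15, among the 45777 genes listed for B16F10 tumors. The members were chosen by gene symbol, whatever their level, and genes with a count of 0 in some tumors were kept. All 10 were found, all 10 had a mean count of at least 1 over the tumors and were tested, and 9 of them had no count of 0 in any tumor. The list was proposed with earlier results of these data known, among them a change of arachidonic acid genes in obese tumors after therapy, so it was in part selected on that contrast, which is therefore described here without a test.

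B16F10 cells, a single melanoma line derived from the C57BL/6 strain, had been injected under the skin of the flank of mice aged 6 weeks, and RNA of the resulting tumors was sequenced. Hosts were either lean C57BL/6J mice or obese ob/ob mice, which lack functional leptin throughout life and in every tissue. In each host, tumors were taken before therapy or after etoposide (ETS), which poisons topoisomerase II and so causes DNA breaks; mice had 5 doses of 20 mg per kg into the peritoneal cavity. The lean pre-therapy, lean ETS, obese pre-therapy and obese ETS groups held 4 tumors each, 16 in all, every one of them grown from the same injected line.

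Arachidonic acid, cut from membrane phospholipids by phospholipases, is the common substrate of these enzymes. The cyclooxygenases turn it into prostaglandin H2, from which each terminal synthase makes its own product, such as prostaglandin E2, prostaglandin D2 or prostacyclin. The lipoxygenase arm starts with Alox5, which works with the membrane protein encoded by Alox5ap to make leukotriene A4, and Ltc4s joins leukotriene A4 to glutathione. In tumors, these lipids are known as signals between cancer cells, fibroblasts and myeloid cells, and leukotriene synthesis is known above all from myeloid cells.

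Promoter sequences of 7 of the 10 members were found in a RefSeq table of build GRCm38.p6, and those of Ptgs1, Ptgs2, Ptgds and Hpgds are shown because each pair makes the same product but differed in level or in its values after ETS. Each run is the 250 bases before an annotated transcript start, written 5′ to 3′ on the strand of the gene. For Ptgs1, Ptgds and Hpgds, and for Ptges among those not shown, this start lies inside the gene span given below. Distances are therefore to that start, not to the outer end of the gene. Capitals mark the motifs found among those searched, which were AGGAAGT (a core read by PU.1 and other Ets factors), GGGCGG (a GC box), TTGCGCAA (a C/EBP palindrome), TGANTCA (AP-1), TCATGTG (an M-box, read by Mitf), CACGTG and TATAAA.
Ptgs1 (chr2:36230176-36230425, plus strand): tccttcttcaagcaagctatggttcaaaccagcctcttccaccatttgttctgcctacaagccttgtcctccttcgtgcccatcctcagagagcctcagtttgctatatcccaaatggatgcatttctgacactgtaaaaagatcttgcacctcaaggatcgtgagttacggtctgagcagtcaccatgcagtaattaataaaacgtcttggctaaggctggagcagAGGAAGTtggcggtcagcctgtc
Ptgs2 (chr1:150099781-150100030, plus strand): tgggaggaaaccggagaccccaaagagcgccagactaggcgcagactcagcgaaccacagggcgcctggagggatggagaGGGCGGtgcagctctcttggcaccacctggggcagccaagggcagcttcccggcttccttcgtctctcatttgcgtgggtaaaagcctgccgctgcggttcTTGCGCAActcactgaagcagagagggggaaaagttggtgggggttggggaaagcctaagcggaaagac
Ptgds (chr2:25469750-25469999, minus strand): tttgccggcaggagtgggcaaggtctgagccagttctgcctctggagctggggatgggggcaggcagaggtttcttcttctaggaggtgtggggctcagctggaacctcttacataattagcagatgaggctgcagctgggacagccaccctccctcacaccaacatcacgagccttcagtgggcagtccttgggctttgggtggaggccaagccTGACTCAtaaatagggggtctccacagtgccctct
Hpgds (chr6:65144731-65144980, minus strand): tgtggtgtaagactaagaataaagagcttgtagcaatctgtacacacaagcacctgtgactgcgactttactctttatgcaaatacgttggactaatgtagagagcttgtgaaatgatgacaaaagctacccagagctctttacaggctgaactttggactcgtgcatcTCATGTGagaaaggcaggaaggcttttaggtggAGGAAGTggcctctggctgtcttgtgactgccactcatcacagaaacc

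The C/EBP palindrome of Ptgs2 began 69 bases before the start and its GC box 170 bases before it. The Ets core began 23 bases before the start of Ptgs1 and 48 bases before that of Hpgds, which also held the M-box at 81 bases. The AP-1 letters of Ptgds began 35 bases before its start. Both strands of 32851 promoters of the same length were searched for each motif, and 0.164% held the C/EBP palindrome, 3.25% the M-box, 6.02% CACGTG, 6.75% AP-1, 7.69% the Ets core, 12.4% TATAAA and 32.7% the GC box. Among the other members with an entry, Ptges held GC boxes 53 and 42 bases before its start, Alox5 held a GC box at 35 bases, and Ltc4s held the Ets core at 117 bases. None of the 7 windows held CACGTG or TATAAA. These matches describe the letters of each window, and no binding was measured.

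The 10 genes lie on 5 chromosomes. On build GRCm38.p6, the cyclooxygenase genes span chr2:36216742-36258593 (Ptgs1) and chr1:150100031-150108234 (Ptgs2). Of the terminal synthases, Ptges spans chr2:30889471-30931020, Ptgis chr2:167203194-167252150, Ptgds chr2:25466709-25470110 and Hpgds chr6:65117293-65144981. The lipoxygenase genes span chr6:116410071-116461178 (Alox5), chr5:149265004-149288153 (Alox5ap), chr11:50236461-50238532 (Ltc4s) and chr11:70344147-70390538 (Alox15). Antisense or other genes of the opposite strand overlap Ptgs1, Ptgis, Hpgds, Alox5ap and Ltc4s in the GENCODE annotation, and a pseudogene of the same strand overlaps Ptges. A strand setting for the counting is not given in the sources used here, so reads of such partners cannot be told apart from those of the member.

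Between 47199949 and 61655287 counts were assigned to genes per tumor, and no pair of tumors in a group was as alike as sampling noise alone would make it. Markers of melanocytes were high in every tumor, at a summed level of 10515 to 26158 CPM (read counts scaled to the size of each library). Lean pre-therapy tumor 1 and obese ETS tumor 4 held the highest summed fibroblast, macrophage and platelet markers of their groups. Their platelet sums, 13.9 and 92.4 CPM, were mostly Pf4, which reached 12.8 and 68.7 CPM in the groups of these tumors. Most members below were highest in these same tumors, so values are also given without them.

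On the TPM scale, which divides by transcript length and allows levels of different genes to be compared, Ptgds stood far above the rest. Its mean over the 16 tumors was 1804 ± 954 TPM (SD, n = 16), and it was above the next gene in 16 of 16 tumors. Ptgds encodes lipocalin-type prostaglandin D synthase, a secreted protein that also carries lipids. Hpgds, the glutathione-dependent prostaglandin D synthase of hematopoietic cells, came next at 21.9 ± 6.52 TPM. Alox5ap followed at 18.5 ± 18.9 TPM and was below Hpgds in only 11 of the 16 tumors, so these neighbours were not separated beyond their spread.

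The remaining members were lower. Ltc4s, Ptgis, Ptges, Ptgs2, Ptgs1 and Alox5 had means of 3.0, 2.29, 1.36, 1.26, 1.15 and 1.09 TPM, and each of these means was close to or below its own SD between tumors (1.04 to 4.05 TPM). Neighbours in this stretch of the order changed places freely, since the upper gene of each pair was the higher in only 7 to 12 of 16 tumors. Alox15, which encodes a lipoxygenase that acts further along the arachidonic acid chain than Alox5, was listed at 0.0615 ± 0.0375 TPM. This low TPM rests on a transcript length far above the annotated one (given below), so its place in the order is uncertain: the deposited TPM put Alox15 below Alox5 in 16 of 16 tumors, whereas per kb of the longest GENCODE transcript it was above Alox5 in 8 of 16.

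**Figure D1:**
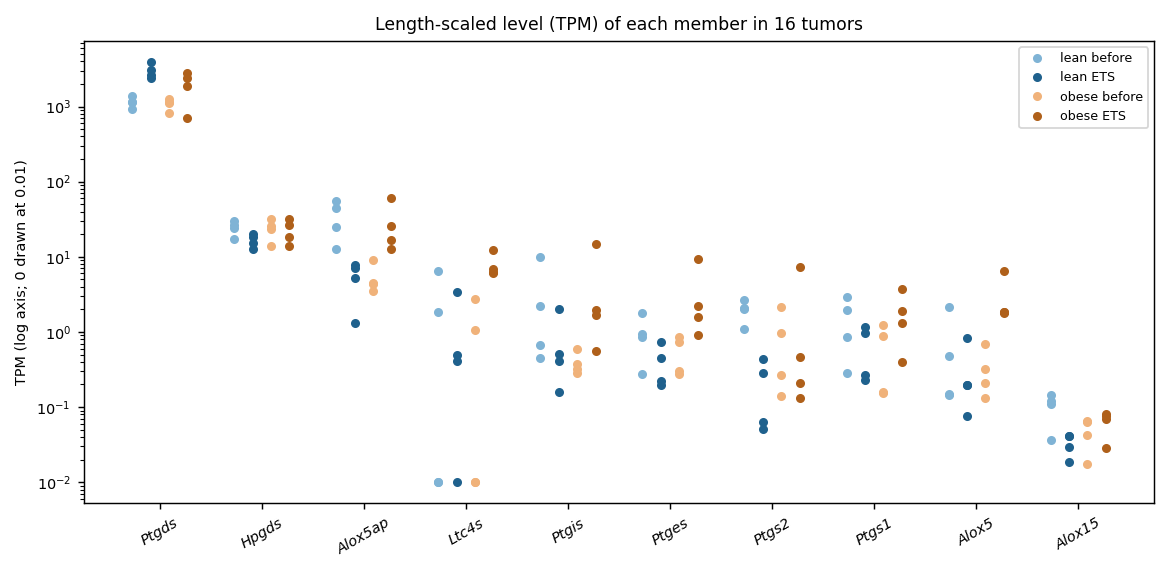
TPM of each member (log axis, genes in order of their mean) in the 16 tumors, 1 point a tumor, colored by group; a value of 0 is drawn at 0.01. Ptgds lies between 712 and 3946 TPM, above every other member in every tumor, and Ltc4s is at 0 in 5 tumors.

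For all members but Ptgds, the fitted difference after ETS was below 0 in lean tumors and above 0 in obese tumors. The sign turned for 5 of these 9 members when a single tumor was left out: without lean pre-therapy tumor 1 the lean difference was 0.029 for Ptgs1, 0.84 for Alox5 and 1.32 for Ltc4s, without obese ETS tumor 4 the obese difference was -1.55 for Ptgs2, and without obese pre-therapy tumor 4 that of Hpgds was -0.14. In lean tumors, 9 of 10 members had a lower fitted level after ETS and the median log2 fold change was -0.82, against -0.036 over all 22477 genes tested. In this comparison 3 members passed the test at an adjusted p under 0.05, namely Ptgds, which rose, and Alox5ap and Alox15, which fell. Of all genes tested, 32.7% passed it, so 3 of 10 is near the background. In obese tumors, all 10 fitted differences after ETS were above 0 and their median was 2.03, against 0.074 over all genes; this is the contrast that had a part in the choice of the list. Here 5 members, Ptgs1, Ptges, Alox5, Alox5ap and Ltc4s, had all 4 ETS tumors above all 4 pre-therapy tumors, where 13.6% of all genes did, and nothing is read from that count.

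Before therapy, 8 of 10 members were lower in obese than in lean tumors by the fit (median log2 fold change -1.03, all genes -0.0070), and 1, Alox5ap, passed the test, against 20.2% of all genes. After ETS, 9 of 10 were higher in obese than in lean tumors (median 2.25, all genes 0.028) and none passed edgeR's quasi-likelihood test, which 2.15% of all genes passed. At an unadjusted p under 0.05, 6 members were under the threshold in that comparison, as were 21.4% of all genes, and DESeq2 called 2 of the 9 members it could adjust, Ptges and Alox5ap, and 12.3% of all genes it could adjust. This comparison uses the obese ETS tumors, and the one before therapy uses the obese pre-therapy tumors. Both groups had a part in the choice of the list, so neither host comparison is free of that choice. All 4 obese ETS tumors lay above all 4 lean ETS tumors for 3 members, Alox5, Alox5ap and Ltc4s, where 5.63% of all genes did so. The comparisons of the hosts use the same tumors as the comparisons within each host, so they are not independent of them.

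**Figure D2:**
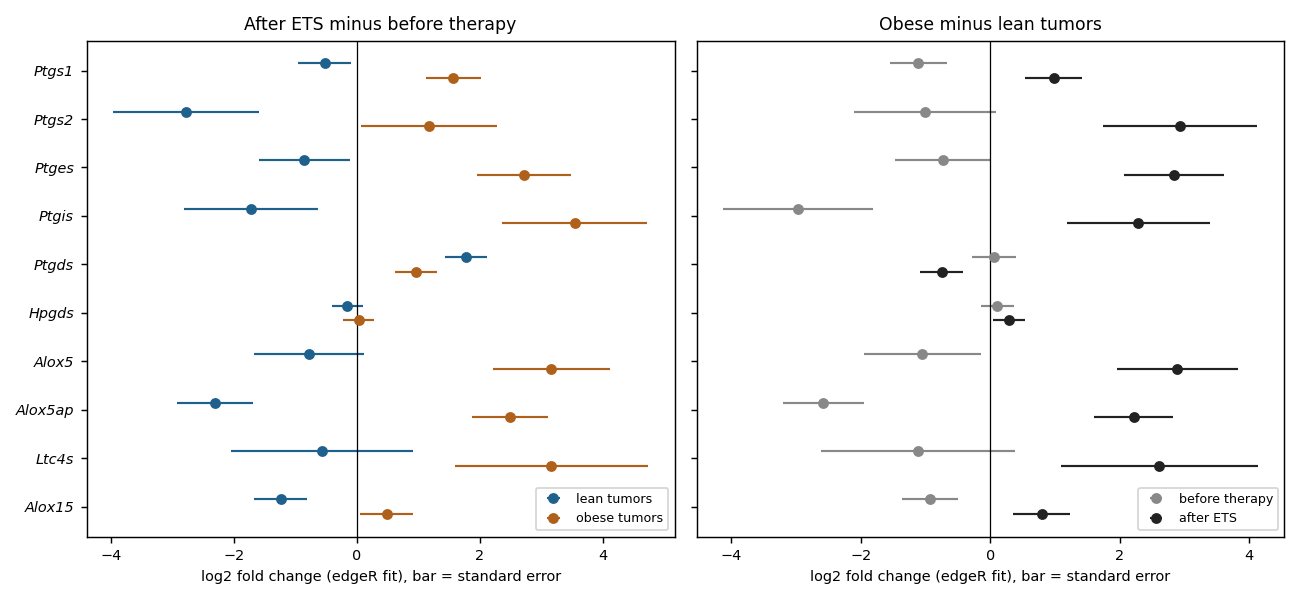
Log2 fold change of each member from the fit to all 16 tumors, with bars of 1 standard error, for ETS minus pre-therapy in each host (left) and obese minus lean at each stage (right). In the left panel the lean and obese points lie on opposite sides of 0 for all members but Ptgds, with Hpgds close to 0 in both hosts; leaving out 1 tumor turns the sign in a host for Ptgs1, Alox5, Ltc4s, Ptgs2 and Hpgds.

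Ptgs1, the cyclooxygenase that many cells make at all times, was at 5.44, 2.93, 1.29 and 1.43 CPM in lean tumors before therapy and at 2.52, 2.0, 1.67 and 1.5 CPM in lean tumors after ETS. CPM values are scaled to the TMM-adjusted library total and compare 1 gene between tumors. The lean groups overlapped, and the highest value was that of pre-therapy tumor 1 (log2 fold change -0.53, SE 0.44, adjusted p = 0.378). Without that tumor the lean difference was 0.029. In obese tumors Ptgs1 was at 0.910, 1.94, 0.913 and 1.36 CPM before therapy and at 2.69, 3.79, 2.50 and 6.22 CPM after ETS. Every obese ETS tumor lay above every obese pre-therapy tumor, with a fitted difference of 1.57 (SE 0.45), or 1.22 without ETS tumor 4. The differences between obese and lean tumors, -1.11 (SE 0.44, adjusted p = 0.0926) before therapy and 0.98 (SE 0.44, adjusted p = 0.212) after ETS, exceeded their standard errors but did not pass the adjusted test. The former was called by DESeq2 (adjusted p = 0.0404) by the exact test of edgeR on counts plus 1 (adjusted p = 0.0484) and without lean pre-therapy tumor 3 (adjusted p = 0.0478), and it was -0.55 (adjusted p = 0.352) without lean pre-therapy tumor 1.

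Ptgs2, the inducible cyclooxygenase, was at 6.15, 4.01, 2.11 and 4.16 CPM in the lean tumors before therapy and at 0.787, 1.32, 0.125 and 0.175 CPM after ETS. All 4 lean ETS tumors lay below all 4 pre-therapy tumors, as did those of 17.0% of all genes. The log2 fold change of -2.78 (SE 1.18) did not pass the test (adjusted p = 0.0850), and it did with DESeq2 and in several other settings. In obese tumors, Ptgs2 stood at 0.331, 2.12, 0.626 and 5.07 CPM before therapy and at 1.26, 0.551, 0.302 and 16.2 CPM after ETS. The groups overlapped, and the obese difference of 1.17 (SE 1.10) rested on ETS tumor 4, since it was -1.55 without that tumor. The same tumor set the difference between the hosts after ETS, which was 2.93 (SE 1.19, adjusted p = 0.173) and 0.25 without it. Before therapy, the difference of -1.01 (SE 1.10, adjusted p = 0.570) was within the spread.

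Ptges encodes the inducible prostaglandin E synthase that is often made together with Ptgs2. It was at 3.41, 1.41, 0.428 and 1.51 CPM in lean pre-therapy tumors, at 1.02, 1.84, 0.466 and 0.420 CPM in lean ETS tumors, at 0.496, 1.52, 0.592 and 1.45 CPM in obese pre-therapy tumors and at 4.95, 3.41, 1.59 and 16.8 CPM in obese ETS tumors. The obese ETS tumors were the highest group and lay above all obese pre-therapy tumors, with a fitted difference of 2.72 (SE 0.77) and of 1.69 without ETS tumor 4. After ETS, Ptges was 7.16-fold higher in obese than in lean tumors by the fit, with an adjusted p of 0.0630 (log2 2.84, SE 0.77), and the log2 difference was 1.83 (adjusted p = 0.211) without obese ETS tumor 4. The lean ETS difference (-0.85, SE 0.74, adjusted p = 0.398) and the difference between hosts before therapy (-0.73, SE 0.73, adjusted p = 0.531) were within the spread.

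Ptgis, the prostacyclin synthase, is known from the walls of blood vessels and from fibroblasts. In 3 of the 4 groups a single tumor stood far above the others. Its values were 9.25, 1.84, 0.367 and 0.552 CPM in lean pre-therapy tumors, 0.465, 2.48, 0.161 and 0.542 CPM in lean ETS tumors, 0.269, 0.361, 0.304 and 0.585 CPM in obese pre-therapy tumors and 1.86, 2.08, 0.493 and 13.3 CPM in obese ETS tumors. No pair of groups was separated. The lean ETS difference was -1.72 (SE 1.09, adjusted p = 0.239) and became -0.018 without lean pre-therapy tumor 1. The fitted difference after ETS in obese tumors was 3.54 (SE 1.18), and 1.93 without obese ETS tumor 4. Obese minus lean was -2.97 (SE 1.15, adjusted p = 0.0838) before therapy and 2.29 (SE 1.10, adjusted p = 0.244) after ETS, and without the 1 tumor that led each, these were -1.27 and 0.72.

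Ptgds was the only member that rose in lean tumors after ETS. It was at 520, 365, 517 and 450 CPM before therapy and at 1275, 1782, 1252 and 1987 CPM after ETS, and the groups did not overlap. It rose 3.40-fold (log2 fold change 1.77, SE 0.34, adjusted p = 0.00144), and 17.1% of all genes had all 4 lean ETS tumors higher. The call held in each of the 16 fits that left out a tumor (adjusted p between 4.29e-05 and 0.00645).

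In obese tumors, Ptgds was at 554, 496, 499 and 378 CPM before therapy and at 1477, 1181, 782 and 305 CPM after ETS. Obese ETS tumors 1, 2 and 3 lay above all pre-therapy tumors, while tumor 4 was the lowest of all 16, and the fitted difference was 0.96 (SE 0.34), or 1.24 without tumor 4. That tumor also had the lowest summed melanocyte markers of all tumors, 10515 CPM. Before therapy these markers summed to 17840 to 22570 CPM in lean and 11203 to 15154 CPM in obese tumors, while the Ptgds values of the hosts overlapped. A link between Ptgds and these markers was not tested. For Ptgds, obese minus lean was 0.057 (SE 0.33, adjusted p = 0.936) before therapy, within the spread. After ETS it was -0.75 (SE 0.33, adjusted p = 0.212), larger than its standard error but short of the adjusted threshold, and -0.47 without obese ETS tumor 4.

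Hpgds makes the same prostaglandin D2 as Ptgds and did not follow it. Its values ran from 29.8 to 44.9 CPM in lean pre-therapy tumors (median 36.8), from 28.6 to 41.3 CPM in lean ETS tumors (median 31.6), from 24.8 to 52.2 CPM in obese pre-therapy tumors (median 41.6) and from 23.0 to 52.0 CPM in obese ETS tumors (median 44.2). All groups overlapped, and its highest value of all tumors was only 2.27 times its lowest. The fitted differences were -0.16 (SE 0.25, adjusted p = 0.670) in lean tumors, 0.028 (SE 0.25) in obese tumors, 0.11 (SE 0.25, adjusted p = 0.804) between hosts before therapy and 0.29 (SE 0.25, adjusted p = 0.535) after ETS.

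**Figure D3:**
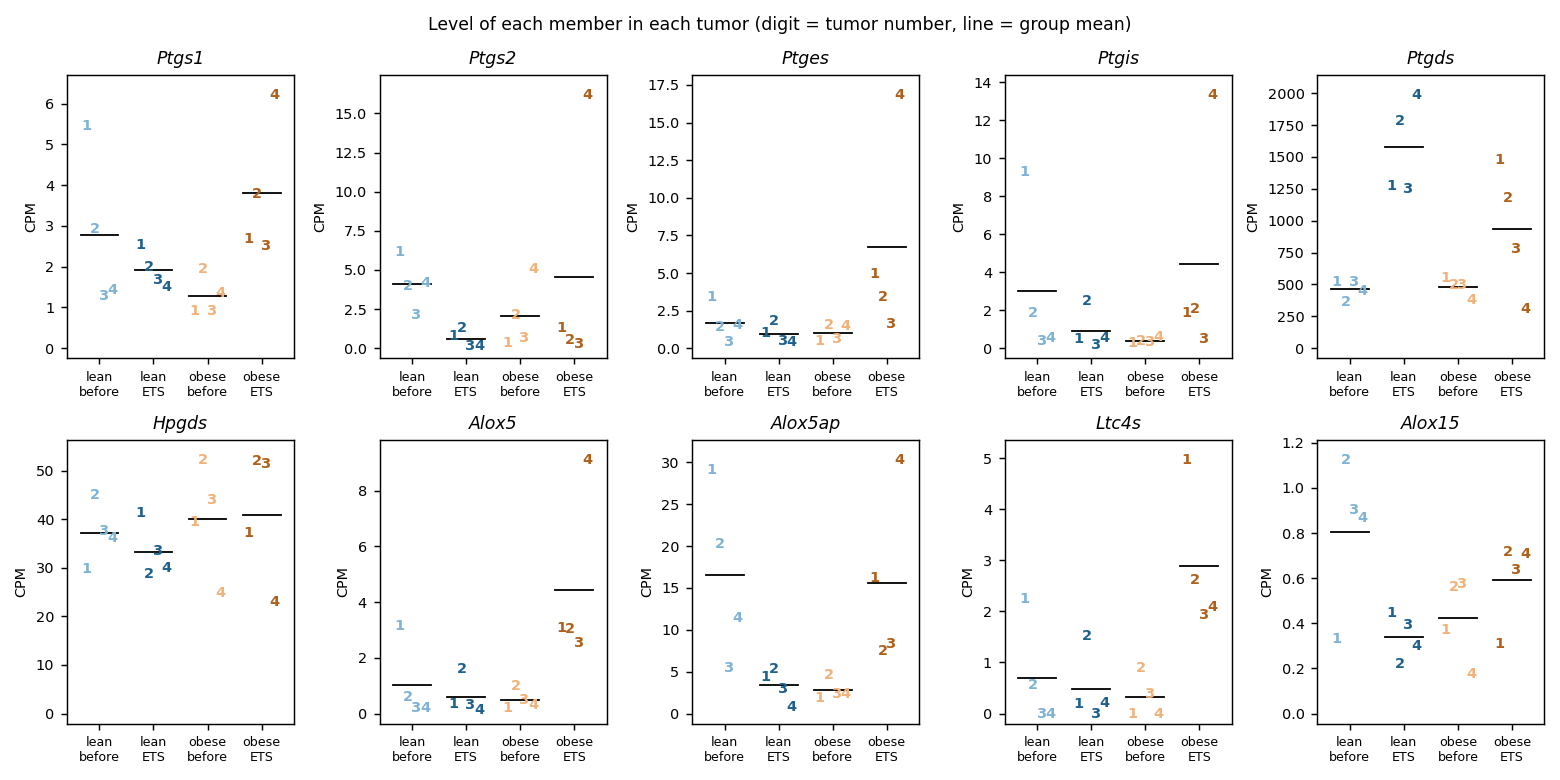
CPM of each member in every tumor by group, on linear axes that differ between panels; each digit is the number of a tumor and each line a group mean (n = 4). Digit 4 of the obese ETS group is the top value of 6 members and digit 1 of the lean pre-therapy group that of 8 members, while Ptgds and Hpgds are lowest in obese ETS tumor 4.

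Alox5, the enzyme that starts leukotriene synthesis, was at 3.13, 0.607, 0.184 and 0.205 CPM in lean pre-therapy tumors and at 0.358, 1.60, 0.304 and 0.140 CPM in lean ETS tumors. These groups overlapped, and the difference of -0.78 (SE 0.90, adjusted p = 0.535) turned to 0.84 without lean pre-therapy tumor 1. In obese tumors it was at 0.207, 0.982, 0.474 and 0.319 CPM before therapy and at 3.07, 3.02, 2.51 and 9.09 CPM after ETS. All obese ETS tumors exceeded all obese pre-therapy tumors and also all lean ETS tumors. The fitted obese difference was 3.16 (SE 0.95), and 2.53 without ETS tumor 4. Between hosts, Alox5 differed by -1.05 (SE 0.90, adjusted p = 0.454) before therapy, a value of 0.57 without lean pre-therapy tumor 1, and by 2.89 (SE 0.94, adjusted p = 0.102) after ETS.

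Alox5ap encodes the protein that hands arachidonic acid to the Alox5 enzyme. It was at 29.1, 20.3, 5.46 and 11.5 CPM in lean pre-therapy tumors and at 4.42, 5.28, 2.94 and 0.787 CPM in lean ETS tumors, with no overlap. It fell by 2.31 on the log2 scale in lean tumors after ETS (SE 0.62, adjusted p = 0.0104). In obese tumors it was at 1.80, 4.59, 2.33 and 2.37 CPM before therapy, all below every lean pre-therapy tumor, and 12.8% of all genes showed that separation. Obese tumors before therapy were thus lower than lean ones (log2 fold change -2.58, SE 0.62, adjusted p = 0.00860). Both calls held in each fit without a tumor, with adjusted p up to 0.0306 and 0.0308. The second call uses the obese pre-therapy tumors, which had a part in the choice of the list.

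After ETS, Alox5ap was at 16.2, 7.49, 8.29 and 30.3 CPM in obese tumors, above every obese pre-therapy and every lean ETS tumor. The fitted obese difference was 2.49 (SE 0.62), and 1.93 without ETS tumor 4. The difference between hosts after ETS was 2.21 (SE 0.61) with an adjusted p of 0.0662, which crossed the threshold with DESeq2 and in several other settings. The lean effect minus the obese effect was -4.79 (SE 0.87), and that difference was not tested.

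Ltc4s, which makes leukotriene C4, the parent of the cysteinyl leukotrienes, had no counts in 5 tumors. It was at 2.25, 0.562, 0 and 0 CPM in lean pre-therapy tumors, at 0.179, 1.52, 0 and 0.210 CPM in lean ETS tumors and at 0, 0.901, 0.389 and 0 CPM in obese pre-therapy tumors. A count of 0 allows up to 3 counts by counting error alone. In the obese ETS tumors it was at 4.96, 2.61, 1.93 and 2.08 CPM, or 275, 128, 121 and 121 counts, above all obese pre-therapy and all lean ETS tumors, and lean pre-therapy tumor 1 reached the same range. The fitted obese difference was 3.16 (SE 1.57), the lean difference -0.57 (SE 1.47, adjusted p = 0.807), and the differences between hosts -1.12 (SE 1.5, adjusted p = 0.658) before therapy and 2.61 (SE 1.52, adjusted p = 0.338) after ETS. Without lean pre-therapy tumor 1, the lean difference was 1.32 and that between hosts before therapy was 0.77.

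Alox15 was at 0.331, 1.12, 0.903 and 0.867 CPM in lean pre-therapy tumors and at 0.447, 0.220, 0.394 and 0.297 CPM in lean ETS tumors. It fell by 1.24 on the log2 scale (SE 0.44, adjusted p = 0.0403), although the groups overlapped through lean pre-therapy tumor 1. This call was lost when any of the lean pre-therapy tumors 2, 3 and 4 or of the lean ETS tumors 2, 3 and 4 was left out (adjusted p up to 0.112) and when genes with few counts were kept in the test. Obese tumors held 0.372, 0.561, 0.575 and 0.177 CPM before therapy and 0.307, 0.714, 0.637 and 0.706 CPM after ETS, which overlapped, with a fitted difference of 0.49 (SE 0.43). The hosts differed by -0.93 (SE 0.43, adjusted p = 0.145) before therapy and by 0.79 (SE 0.44, adjusted p = 0.308) after ETS.

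The deposited counts and FPKM of a gene together imply the transcript length that the quantification used, and for 2 members that length was unlike the annotation. For Alox15, it was 19.0 to 21.1 kb in all 16 tumors, while its longest GENCODE transcript is 2.41 kb and its GENCODE gene span 7.88 kb. The RefSeq entry of Alox15 spans 46.4 kb, and on which of its transcripts the counts lie was not tested. For Ptgs1, the implied length was 3.22 to 4.32 kb in 10 tumors and 12.3 to 12.7 kb in the other 6, against a longest GENCODE transcript of 2.87 kb. In these 6 tumors, which belong to all 4 groups, Ptgs1 TPM was 0.154 to 0.393, and in the other 10 it was 0.848 to 3.72, so TPM of Ptgs1 was not comparable between tumors in the way its CPM was, and the TPM of Ptgs1 and of Alox15 do not place them firmly among the members. On TPM, 4 members rather than 5 had all obese ETS tumors above all obese pre-therapy tumors.

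**Figure D4:**
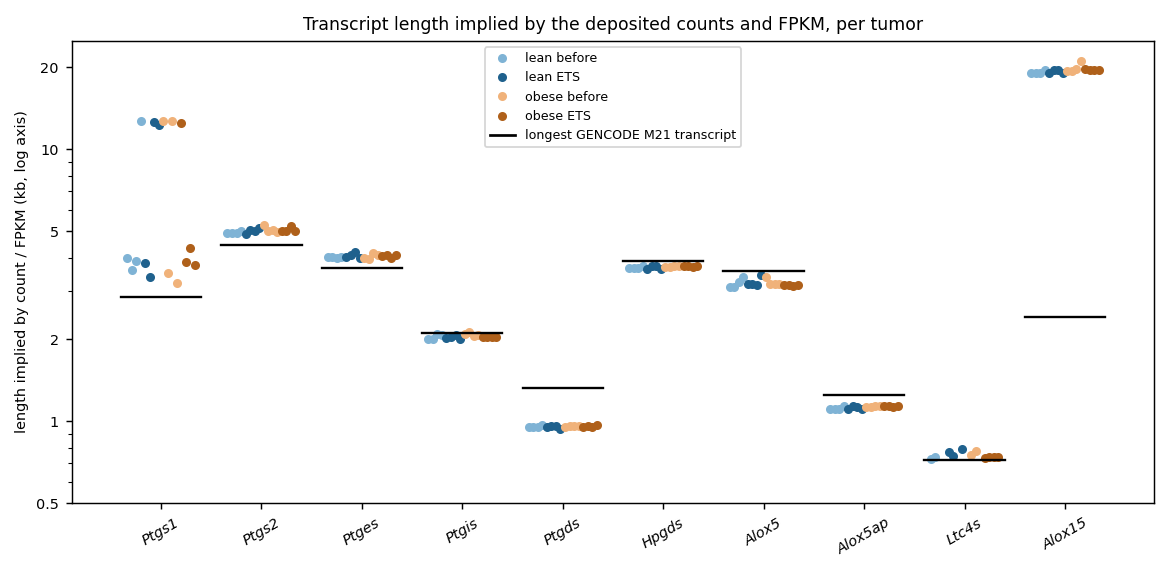
Transcript length in kb (log axis) implied by the counts and FPKM of each member in each tumor, colored by group, with the longest GENCODE transcript as a black line. Ptgs1 falls into a set of 10 tumors near 3.22 to 4.32 kb and a set of 6 near 12.3 to 12.7 kb, and Alox15 lies at 19.0 to 21.1 kb throughout, far above its line at 2.41 kb.

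In bulk tumor RNA, fewer cells of a type and less RNA per cell cannot be told apart, and the tumors with the highest values of many members also held the highest fibroblast and macrophage markers of their groups. Lean pre-therapy tumor 1 held the highest value of its group for 8 members, obese ETS tumor 4 for 6, lean ETS tumor 2 for 6 and obese pre-therapy tumor 2 for 6. The same 4 tumors held the highest summed markers of both cell types, and each led other lists of its group too. Lean pre-therapy tumor 1 also had the highest platelet, mast cell and melanocyte sums, the last at 22570 CPM. Lean ETS tumor 2 had the highest platelet, monocyte, neutrophil, mast cell and adipocyte sums. Obese pre-therapy tumor 2 had the highest monocyte, T cell, endothelial, adipocyte and melanocyte sums, the last at 15154 CPM. Obese ETS tumor 4 had the highest platelet, monocyte, neutrophil, dendritic cell and T cell sums and the lowest melanocyte sum. Summed over 7 fibroblast markers such as Col1a1 and Pdgfra, CPM ran from 368 to 1746 in lean pre-therapy, from 70.8 to 435 in lean ETS, from 68.4 to 445 in obese pre-therapy and from 436 to 4330 in obese ETS tumors. Summed over 10 macrophage markers such as Csf1r and C1qa, it ran from 418 to 1328, from 55.0 to 429, from 43.3 to 261 and from 359 to 1045 CPM in the same order. The part of these cells in the values of the members was not tested.

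By the test, 7 of 10 macrophage, 3 of 4 monocyte and 3 of 7 fibroblast markers fell in lean tumors after ETS, and 9 of 10 macrophage, 3 of 4 monocyte and none of 7 fibroblast markers were lower in obese than in lean tumors before therapy. Of all genes tested, 32.7% passed in lean tumors after ETS, 20.2% between hosts before therapy and 2.15% between hosts after ETS. After ETS, 1 of 7 fibroblast markers, Pdgfrb, and none of the macrophage or monocyte markers passed the test between hosts, although their medians were 2.65, 1.38 and 2.25 on the log2 scale. The other lists stand beside the same shares, and nothing is read from counts near them. Platelet markers rose in lean tumors after ETS for 2 of 5. Obese tumors exceeded lean ones for 4 of these 5 before therapy and for 1 after ETS. Endothelial markers fell in lean tumors after ETS for 1 of 7. Obese tumors were below lean ones for 3 of these 7 before therapy and above them for 1 after ETS. Among 7 neutrophil markers tested, 1 fell in lean tumors after ETS, and 1, S100a9, was higher in obese tumors at each stage. Of 6 dendritic cell markers, 5 fell in lean tumors after ETS and 5 were lower in obese tumors before therapy, and their summed median in obese tumors was 7.33 CPM before and 7.66 CPM after ETS. Of 5 T cell markers, 4 fell in lean tumors, from a median sum of 18.8 to 0.581 CPM. Adipocyte markers summed to a median of 42.9 CPM in obese tumors before therapy and 117 CPM after ETS, against 12.3 CPM in lean ETS tumors, and 1 of 6, Fabp4, passed the test between hosts after ETS. Fabp4 made up most of these sums, with means of 40.6, 116 and 11.8 CPM in the same order. Of the 7 melanocyte markers, 2 rose in lean tumors after ETS and 3 were lower in obese tumors before therapy. Neutrophil markers summed to at most 31.5 CPM over 10 genes, with up to 7 of them at 0 in a tumor, and mast cell markers to at most 14.2 CPM over 8 genes, with up to 7 at 0. Markers of eosinophils and basophils were at or near 0, with sums of at most 0.560 and 0.163 CPM.

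**Figure D5:**
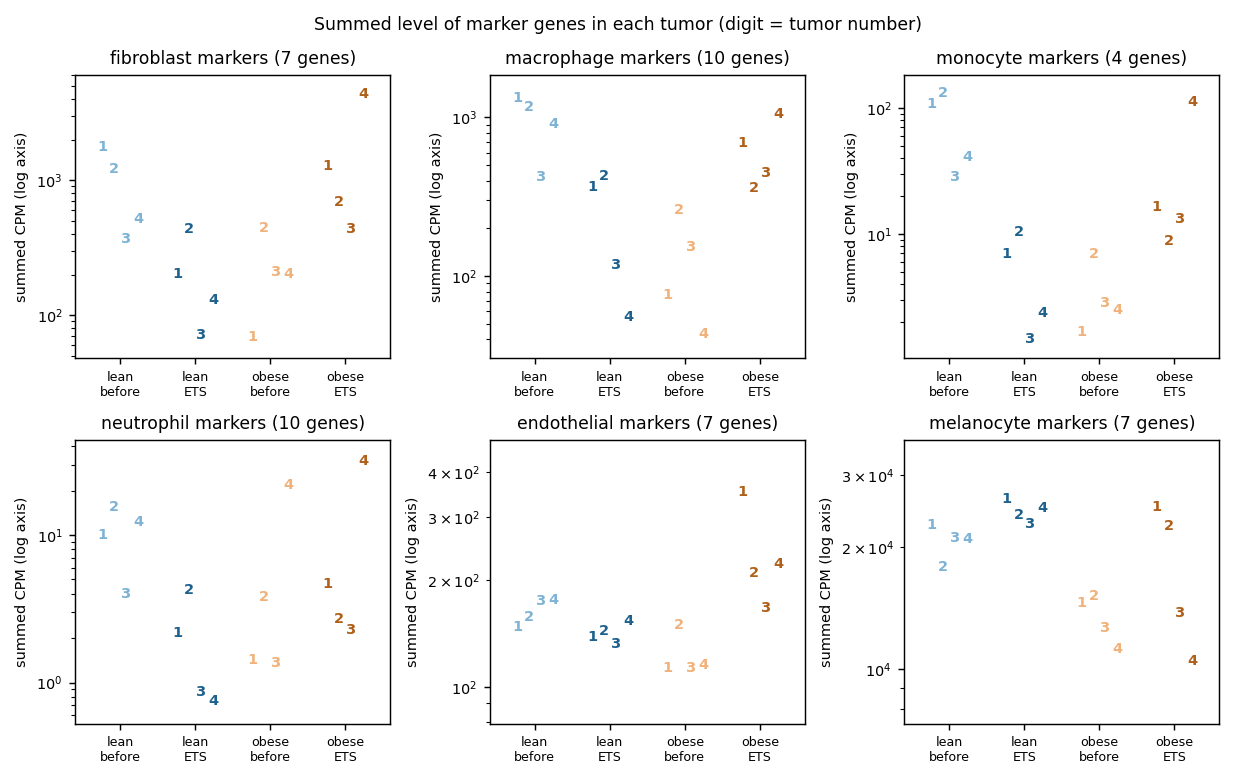
Summed CPM of the marker genes of 6 cell types in each tumor (log axes that differ between panels, the digit is the number of the tumor). Fibroblast markers reach 4330 CPM in obese ETS tumor 4 and 1746 CPM in lean pre-therapy tumor 1, the same tumors that lead most members, and melanocyte markers stay between 10515 and 26158 CPM.

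Around the members, 58 other genes of the pathway were listed, from phospholipases to receptors, and 52 of them had enough counts to be tested. In lean tumors after ETS, 9 rose and 16 fell (median log2 fold change -0.91), or 25 of 52 where 32.7% of all genes passed the test. The largest rises were those of Ephx1 (2.41), an epoxide hydrolase, Ggt1 (1.85), which turns leukotriene C4 into leukotriene D4 by removing its glutamyl residue, and Mgst3 (1.10), a membrane glutathione transferase. Among called genes with a mean of at least 1 CPM, the largest falls were those of Cyp4f18 (-3.33), Pla2g4c (-3.22) and Ptger4 (-2.90). Cyp4f18 is a leukotriene B4 hydroxylase, Pla2g4c a phospholipase and Ptger4 a prostaglandin E2 receptor. Called genes with a lower mean fell further, such as Pla2g4b (-7.98) and Ptger2 (-6.01). By role, 3 of 8 prostanoid receptors and 3 of 4 leukotriene receptors fell and none rose, while 2 of 11 phospholipases rose and 4 fell. Among the other prostanoid synthases 3 of 8 rose and 2 fell, among the other leukotriene enzymes 2 of 9 rose and 1 fell, among genes of prostanoid breakdown and transport 1 of 6 rose and 3 fell, and among the other lipoxygenases and epoxide hydrolases 1 of 6 rose and none fell.

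Before therapy, 2 of the 52 genes were higher and 17 lower in obese than in lean tumors (median -0.93), where 20.2% of all genes passed the test. The higher ones were the phospholipase Pla2g12a (0.92) and Mgst3 (0.56). Among called genes with a mean of at least 1 CPM, the largest differences downward were those of Cyp4f18 (-3.79), Tbxas1 (-3.44) and Slco2a1 (-3.33). Tbxas1 is the thromboxane synthase, and Slco2a1 carries prostaglandins into cells. Called genes with a lower mean differed by more, such as Ptgfr (-6.08) and Cysltr2 (-4.01). After ETS, 2 genes, Ephx2 and Ptger2, were higher in obese than in lean tumors and none was lower (median 1.02), where 2.15% of all genes passed the test, and these 2, named here because they were so few, had means of only 0.488 and 0.395 CPM. Ptger2, a prostaglandin E2 receptor, had also fallen in lean tumors after ETS (0.724 ± 0.104 CPM before and 0.00896 ± 0.0179 CPM after, SD, n = 4).

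The genes whose levels were most like those of a member across the 16 tumors were ranked among 13527 genes with a mean of at least 1 CPM. Likeness is given as the Pearson correlation of log2 CPM and is a description, since all genes of a tumor share its library and its mix of cells. Ptgs1 was most like Ptx3, S100a4 and Adamts5 (0.93, 0.93 and 0.92), Ptges most like S100a6, Colec12 and Col5a3 (0.96, 0.94 and 0.94), and Ptgis most like Tmem45a, Nbl1 and Saa3 (0.97, 0.94 and 0.92). Ptgs2 was most like Srgn, Cd14 and Glipr2 (0.90, 0.89 and 0.87). Alox5 was nearest to F13a1, Fcna and Mcoln2 (0.96, 0.94 and 0.93), Alox5ap to Dapk1, Emilin2 and Ripk3 (0.97 each), and Ltc4s to Fcna, Vsig4 and Lyve1 (0.95, 0.94 and 0.92). F13a1, Fcna, Vsig4 and Lyve1 are known from tissue macrophages, and Col5a3 encodes a collagen chain.

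Of the prostaglandin D synthases, Ptgds was most like Kctd1, Ptprm and Zfp768 (0.96, 0.96 and 0.96), and Hpgds most like Prdm4, Ehhadh and Aggf1 (0.87, 0.82 and 0.79). Taken within the groups, after subtracting each group's mean, the correlations named for all 9 members ranked were between 0.84 and 0.95. Alox15 was not ranked because its mean was under 1 CPM.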

How the data were processed

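Tumor RNA was extracted with Trizol, and per the labels and the paper's methods stranded mRNA libraries with reads of 101 bp were trimmed with Trimmomatic, aligned by the authors to mm10 with HISAT2 2.1.0 and quantified per gene with StringTie 2.1.3b. The authors deposited read counts per gene, which are whole numbers with no normalization. The deposited TPM values are scaled by the authors to length and library and were used for levels between genes and as an alternative. The deposited FPKM values of the authors were used only for the implied length, the count divided by FPKM and by the total count of the tumor. Pipeline versions are those of the submitters' processing notes.

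Groups came from the sample labels, which read ctrl for the tumors that the paper describes as taken before chemotherapy. The day on which these tumors were taken is not given in the sources used here. A difference after ETS therefore cannot be told apart from one of growth time or tumor size. Genes with a mean count of at least 1 over the 16 tumors were tested (22477), because genes with a 0 in some tumors were to be kept, whereas the paper's methods remove them. Counts were scaled by TMM and fitted with a mean per group in edgeR 4.0.16 (R 4.3.3), and edgeR's quasi-likelihood test was adjusted by Benjamini-Hochberg over all tested genes and called at 0.05. Total counts were 47199949 to 61655287 per tumor. The labels do not say more of the tumors than that they are separate samples, so p-values measure the spread between these tumors.

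The members, the pathway and marker lists and the tests were chosen with earlier results of these data known. Named are all 10 members, the 3 largest called rises and falls of other pathway genes with a mean of at least 1 CPM in each tested comparison, and the 3 genes most like each member (log2 CPM, prior count 2). Of the pathway list, Ptgr3 was not analysed here. Genome positions and promoters come from RefSeq tables of GRCm38.p6, and transcript lengths and overlaps from GENCODE M21. The alternatives were DESeq2 1.42.0, its size factors, other filters, the exact test, limma 3.58.1 on log2(TPM + 1), fewer tumors and a replicate block. The fit was tested on simulated data. Leaving out lean pre-therapy tumor 1 together with obese ETS tumor 4 was added after the data had been seen.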

Additional observations from a re-analysis of the deposited data

Results flagged for a closer look

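In 8 of the 40 groups of 4 values checked, a single tumor stood apart from the others by Dixon's criterion. For independent normal values chance meets it in about 1 of 20 groups, but CPM are skewed and these groups share the same 16 tumors, so the count of 8 is not set against that rate. These 8 values belong to 3 tumors. Obese ETS tumor 4 stood apart for Ptgs2 at 16.2 CPM (the others 0.302 to 1.26), for Ptgis at 13.3 CPM (0.493 to 2.08) and for Alox5 at 9.09 CPM (2.51 to 3.07). Lean pre-therapy tumor 1 stood apart for Ptgis at 9.25 CPM (0.367 to 1.84) and for Alox5 at 3.13 CPM (0.184 to 0.607). Lean ETS tumor 2 stood apart for Ptgis at 2.48 CPM (0.161 to 0.542), for Alox5 at 1.60 CPM (0.140 to 0.358) and for Ltc4s at 1.52 CPM (0 to 0.210). Each of these tumors also held the highest summed fibroblast and macrophage markers of its group, 4330 and 1045 CPM, 1746 and 1328 CPM, and 435 and 429 CPM respectively. Each held the highest platelet sum of its group as well, 92.4, 13.9 and 8.51 CPM in the same order. The highest Pf4 values of these groups were 68.7, 12.8 and 4.58 CPM, so the platelet sums rested largely on 1 gene. The part of these cells was not tested.

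Alox5ap moved in opposite directions in the hosts. After ETS all lean tumors were below, and all obese tumors above, the pre-therapy tumors of their host, and the lean effect minus the obese effect was -4.79 on the log2 scale. That difference was not tested. Its obese part is the contrast that had a part in the choice of the list. The share of all genes with such opposite moves was not counted, so nothing is read from it.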

How the results depend on the processing

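The lean ETS calls of Ptgds and Alox5ap and the pre-therapy call of Alox5ap between hosts were kept under every alternative run. The last of these uses obese pre-therapy tumors, which had a part in the choice of the list. The count of members called in lean tumors was 3, and 2 to 4 with a tumor left out. Between hosts before therapy it was 1, and 3 with DESeq2 and 3 with the exact test (Ptgs1, Ptgis and Alox5ap), and 1 to 2 with a tumor left out (2 without lean pre-therapy tumor 3 or without obese ETS tumor 4). After ETS it was 0, and 2 without genes that hold a 0, 2 with filterByExpr, 2 with DESeq2 (Ptges and Alox5ap each time), 3 with the exact test (with Alox5) and 2 with limma on TPM (Alox5 and Alox5ap). It was 0 to 1 with a tumor left out (1 without obese ETS tumor 2 or 3). The median lean minus obese effect over the members, -3.65, was -1.59 with limma on TPM, a scale that shrinks low values, -1.83 without lean pre-therapy tumor 1 and obese ETS tumor 4, and -4.40 to -2.15 with a tumor left out (-2.15 without lean pre-therapy tumor 1 and -2.18 without obese ETS tumor 4). Members with all obese ETS tumors higher numbered 5, and 4 on the deposited TPM. With a tumor left out they numbered 5 to 6, a count that cannot fall when a tumor is removed and so shows no stability.

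No difference that changed sign was called. Before therapy, Ptgds was -0.086 and Hpgds -0.072 with limma on TPM, Ptgds was -0.041 without lean pre-therapy tumor 2 and -0.017 without obese pre-therapy tumor 1, and Hpgds was -0.042 without obese pre-therapy tumor 2. Without lean pre-therapy tumor 1, Ptgs1 (0.029), Alox5 (0.84) and Ltc4s (1.32) turned in lean tumors, and Alox5 (0.57) and Ltc4s (0.77) before therapy. Without that tumor and obese ETS tumor 4, Alox5 (0.78) and Ltc4s (1.25) turned in lean tumors, and Hpgds (-0.0082), Alox5 (0.54) and Ltc4s (0.72) before therapy. Over the 16 fits without a tumor, the ranges of these members were -0.77 to 0.029 for Ptgs1, -1.94 to 0.84 for Alox5 and -2.41 to 1.32 for Ltc4s in lean tumors, and -0.041 to 0.16 for Ptgds, -0.042 to 0.28 for Hpgds, -1.61 to 0.57 for Alox5 and -2.37 to 0.77 for Ltc4s before therapy. The cause was not tested.

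Same-numbered tumors deviated together in some pairs only (correlations of -0.18 to 0.62, over 0.1 in 6 of 16). Tumors of unlike number were not compared, so these values cannot decide whether the numbers pair the tumors. With the replicate block, 3, 1 and 0 members were called in the 3 tested comparisons, with Ptgs2 in place of Alox15 in lean tumors, and the median lean minus obese effect was -3.29. Of all genes, the block called 7956, 4983 and 1009 in these comparisons, against 7352, 4531 and 484 without it. The number of all genes called after ETS between hosts ranged from 15 with only the 8 tumors compared to 2214 with DESeq2, against 484. The fewest counts were those of Alox15 (10 to 74 per tumor) and of Ltc4s (0 to 275).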
